A study of Mus musculus with 36 samples.

Results

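The cells described here are *Tet1* KO cells at the start of a neurobasal differentiation and 3 days into it. They gave 6 of the 36 libraries of the series, 2 of day 0 and 4 of day 3, and were chosen by genotype and day alone, from the cell lines KO1 and KO15. They are male ESC lines derived from blastocysts of the (B6 × 129S6)F1 *Tet1* tm1Koh background, which lack functional TET1 from the outset, so every stage of the culture, day 0 included, was without it. On day 0 the cells were ESCs grown in serum with LIF on mouse embryonic fibroblasts, which were then removed by replating. From day 0 to day 3 they grew on gelatin in serum-free N2B27 medium with 10 ng/ml bFGF, and no signalling inhibitor is named in the titles of these libraries. Day 0 and day 3 of experiment 1 gave 1 library per line each, and the daily time course of experiment 2 gave a further day 3 library per line. The 4 libraries of day 3 are thus 2 differentiations of 2 lines, and p-values rest on the spread within groups, pooled over all 36 libraries of the fit. WT cells of the lines WT7 and WT34, littermate ESCs of the same background taken through the same days (2 libraries of day 0 and 4 of day 3), served for the comparison between genotypes.

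TET1 oxidises methylated cytosine in DNA and also acts on transcription without that activity. Mouse ESCs in serum and LIF sit close to the naive epiblast. When LIF is withdrawn they pass through a formative stage, which resembles the epiblast just after implantation, and from there enter either neuroectoderm or the primitive streak, the source of mesoderm and endoderm. Streak formation is driven by Nodal, a TGF-β family ligand, by Wnt ligands acting through β-catenin, and by FGF. The question set by the design was which genes changed as KO cells left the ESC state, and how that change compared with the change in WT cells.

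Total counts per library ranged from 13052690 to 22777852 in KO cells and from 10267341 to 26307363 in WT cells, and 24907 to 27065 genes were detected with any count in the KO libraries. Levels are given as CPM, the counts of a gene relative to the TMM-scaled library total, and wherever 4 day 3 values are listed they are KO1 and KO15 of experiment 1 followed by KO1 and KO15 of experiment 2. The day separated the KO libraries along the first principal component (67.4% of the variance). The second (11.8%) separated the day 3 libraries of experiment 1 from those of experiment 2. Feeder fibroblast markers summed to 172 to 217 CPM on day 0 and 87.9 to 99.8 CPM on day 3, with all 16 markers at some count on both days. In bulk RNA fewer cells of a type and less RNA per cell cannot be told apart. Day 0 was sampled in experiment 1 alone. The model therefore held a term for the experiment. Values from experiment 1 alone, with each line compared with itself, and from day 3 of experiment 2 alone against the same day 0 are set beside many of the results.

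*Tet1* itself (ENSMUSG00000047146, mm10 chromosome 10, 62804570 to 62908996, minus strand) was at 28.9 and 33.3 CPM in the day 0 libraries of KO1 and KO15 and at 57.8, 66.6, 62.8 and 72.6 CPM on day 3. WT libraries held 1308 and 1432 CPM on day 0 and 229.9 to 255 CPM on day 3, above every KO library. Within the KO cells the log2 fold change was 0.89 (SE 0.14, adjusted p = 1.34e-05), under the threshold of 1. It passed as a rise without the experiment term (1.06), with only the compared libraries (1.03) and with day 3 of experiment 2 alone (1.10, adjusted p = 5.96e-06). On the TPM scale, which corrects for transcript length, the sign turned to -0.67. Whether the remaining reads come from part of the locus was not tested. In WT cells the same gene changed by -2.66 (SE 0.13, adjusted p = 6.33e-15). The other members of the family are not targeted. *Tet2* fell in KO cells from 267 and 279 CPM to 9.61, 9.95, 13.8 and 11.7 CPM, a log2 fold change of -4.95 (SE 0.17, adjusted p = 3.22e-17), and *Tet3* rose from 19.0 and 15.6 to 68.8, 79.7, 58.0 and 72.9 CPM, by 2.03 (SE 0.13, adjusted p = 4.28e-12).

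Of 21601 genes tested, 2336 rose (10.8%) and 2244 fell (10.4%) in KO cells between day 0 and day 3 by the quasi-likelihood F test of edgeR, with the threshold set at an adjusted p of 0.05 and a change of more than 1 on the log2 scale. The median log2 fold change of all tested genes was 0.04. KO libraries of the 2 days did not overlap for 4453 of these 4580 genes, beside 12180 (56.4%) of all genes tested. Both lines of experiment 1 moved in the same direction for 4565 of them. Of the 4347 that could also be tested in experiment 1 alone with the lines paired, 3807 passed there in the same direction and 0 turned direction, while the fold of 229 differed by more than 1.5 times. These counts reuse libraries on which the calls rest, so they are not independent of the calls. Some genes went from near silence to clear expression. Each day 0 library held under 1 CPM and each day 3 library at least 5 CPM for 77 genes, 74 of them protein coding, and the converse held for 64 genes, 51 of them protein coding.

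**Figure D1:**
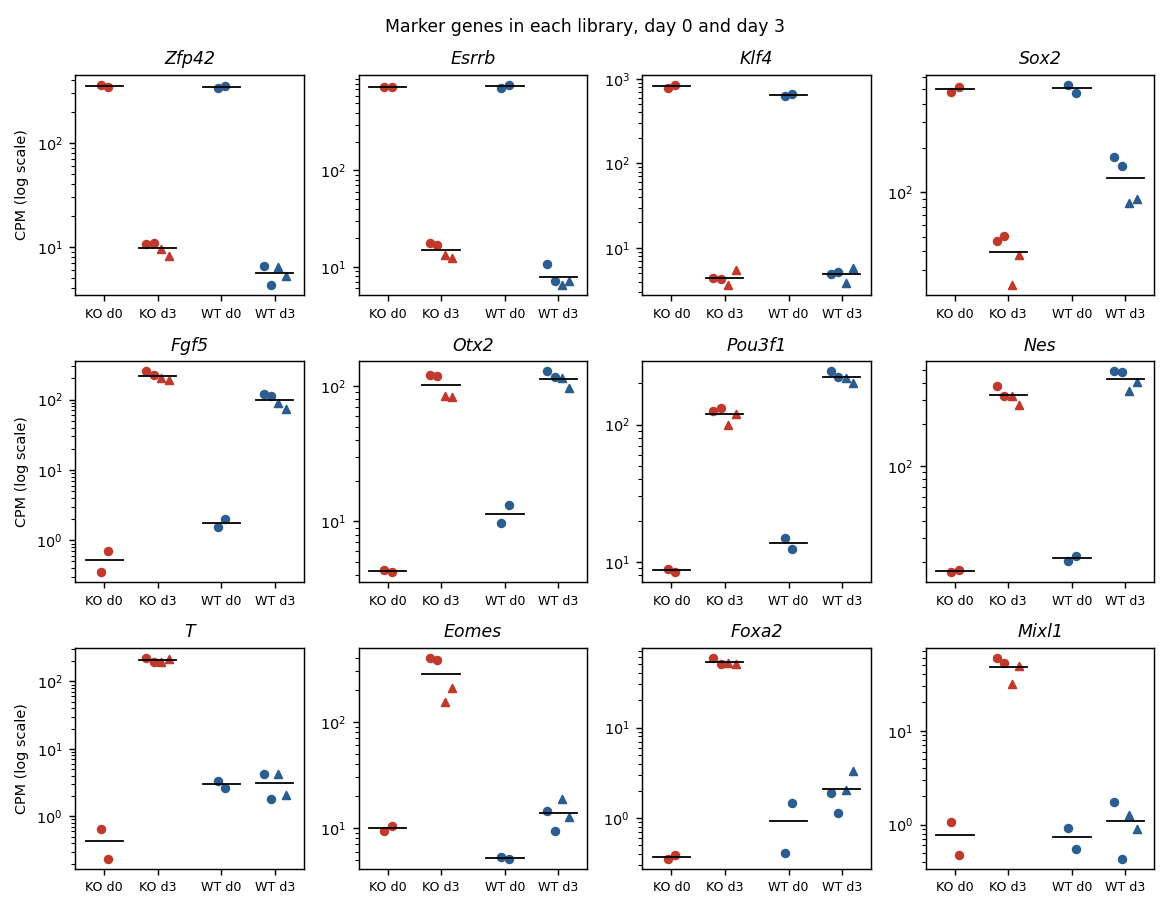
CPM (log scale) of 12 marker genes in each library. Red points are KO and blue points WT libraries on day 0 (d0) and day 3 (d3), circles stand for experiment 1, triangles for experiment 2 and black bars for group means. The genes in the top row fell in both genotypes, whereas the KO day 3 libraries held *T* at 194 to 220.5 CPM and the WT day 3 libraries at 1.80 to 4.30 CPM.

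All 16 measured genes of naive pluripotency fell in KO cells (10.4% of all genes fell), with a median log2 fold change of -5.04. *Esrrb*, an orphan nuclear receptor of the naive network, went from 737 and 745 CPM to 17.8, 16.8, 13.4 and 12.2 CPM, a log2 fold change of -5.42 (SE 0.19, adjusted p = 3.18e-17). *Zfp42*, which encodes the naive marker REX1, went from 365 and 349 to 10.8, 10.9, 9.51 and 8.23 CPM (-5.07, SE 0.19). Every day 0 library lay far above every day 3 library for both genes. *Klf4*, a Krüppel-like factor that LIF maintains, was at 784 and 855 CPM and then at 4.44, 4.26, 3.64 and 5.49 CPM, with a log2 fold change of -6.79 (SE 0.51, adjusted p = 4.87e-11). Within experiment 1 it was -7.59. *Prdm14*, a repressor of FGF signalling and of DNA methyltransferases in naive cells, had 479 counts over both day 0 libraries and 2 over the 4 day 3 libraries, 636 (95% interval 175 to 5265) times higher on day 0 by counting error alone. *Dppa5a* dropped from 1153 and 1041 CPM to 29.4, 22.0, 22.8 and 15.3 CPM and *Fgf4*, the main FGF ligand of ESCs, from 230.2 and 233 to 16.8, 15.0, 12.03 and 15.2 CPM.

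*Nanog* stood apart from this group. It was at 493 and 514 CPM on day 0 and still at 215, 204, 194 and 159.6 CPM on day 3, a log2 fold change of -1.51 (SE 0.30, adjusted p = 0.000204), which was the smallest fall of the list. In WT cells its mean went from 411 to 48.4 CPM, and the difference between the genotypes was 1.77 (SE 0.43, adjusted p = 0.0117). That difference did not pass without either KO day 0 library (adjusted p = 0.0562 and 0.0577), on log2(TPM + 0.1) (adjusted p = 0.0755) or on log2(TPM + 1) without a filter (adjusted p = 0.0782). The core pluripotency factors divided further. *Pou5f1*, which encodes OCT4, was at 849 and 811 CPM on day 0 and at 878, 859, 819 and 768 CPM on day 3, and the groups overlapped, with a log2 fold change of 0.12 (adjusted p = 0.599). *Sox2*, the partner of OCT4 in ESCs and a neural progenitor factor afterwards, fell from 480.4 and 519 CPM to 46.8, 50.6, 23.7 and 37.5 CPM, a log2 fold change of -3.52 (SE 0.25, adjusted p = 1.38e-11). WT cells kept 175, 151, 85.0 and 90.8 CPM of *Sox2* on day 3, all above the KO libraries, and the change differed between the genotypes by -1.63 (SE 0.34, adjusted p = 0.0034). *Lin28a* rose from 352 and 314 to 748, 769, 615 and 678 CPM (1.20, adjusted p = 3.07e-12). Its value within experiment 2 alone was 0.93, under the threshold.

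Of 10 genes of LIF signalling 9 fell, beside 10.4% of all genes, at a median log2 fold change of -2.37. *Socs3*, the feedback inhibitor of the LIF pathway, went from 143 and 137 CPM to 13.1, 10.1, 9.22 and 6.29 CPM, and *Il6st*, which encodes the shared receptor subunit gp130, from 143 and 161 to 49.0, 44.5, 43.7 and 50.9 CPM. *Bcl3* and *Pim3* fell by 5.00 and 2.43 on the log2 scale. In WT cells 8 members of the list fell, beside 9.62% of all genes.

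Of 13 measured genes of formative and primed pluripotency 8 rose and 1 fell, beside 10.8% of all genes that rose, with a median log2 fold change of 3.95. *Fgf5*, the FGF ligand that marks post-implantation epiblast (mm10 chromosome 5, 98254184 to 98277030), was at 0.356 and 0.707 CPM on day 0 and at 251, 227, 199 and 192 CPM on day 3, a log2 fold change of 8.89 (SE 0.35, adjusted p = 2.59e-16). *Otx2*, a homeodomain factor of the epiblast and later of the forebrain, rose from 4.41 and 4.24 to 120.0, 119, 84.9 and 82.7 CPM, by 4.54 (SE 0.32, adjusted p = 1.76e-11). *Pou3f1* (OCT6) rose from 8.90 and 8.48 CPM to 125, 131, 100.2 and 119.7 CPM, and *Dnmt3b*, a de novo DNA methyltransferase, from 501 and 389.6 CPM to 1742, 1875, 1561 and 1628 CPM. *Pim2* and *Sall2* rose by 4.16 and 4.11. For each of these genes the groups were far apart and the 4 day 3 libraries lay close together. WT cells raised 10 members of the list, beside 12.9% of all genes. *Fgf5* reached 122, 113, 88.2 and 74.5 CPM in WT day 3 libraries, less than in any KO library, from 1.53 and 1.99 CPM on day 0. The difference in its change was 2.92 (SE 0.60, adjusted p = 0.0031), and without WT day 0 replicate 2 it was 2.70 and did not pass (adjusted p = 0.0763).

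**Figure D2:**
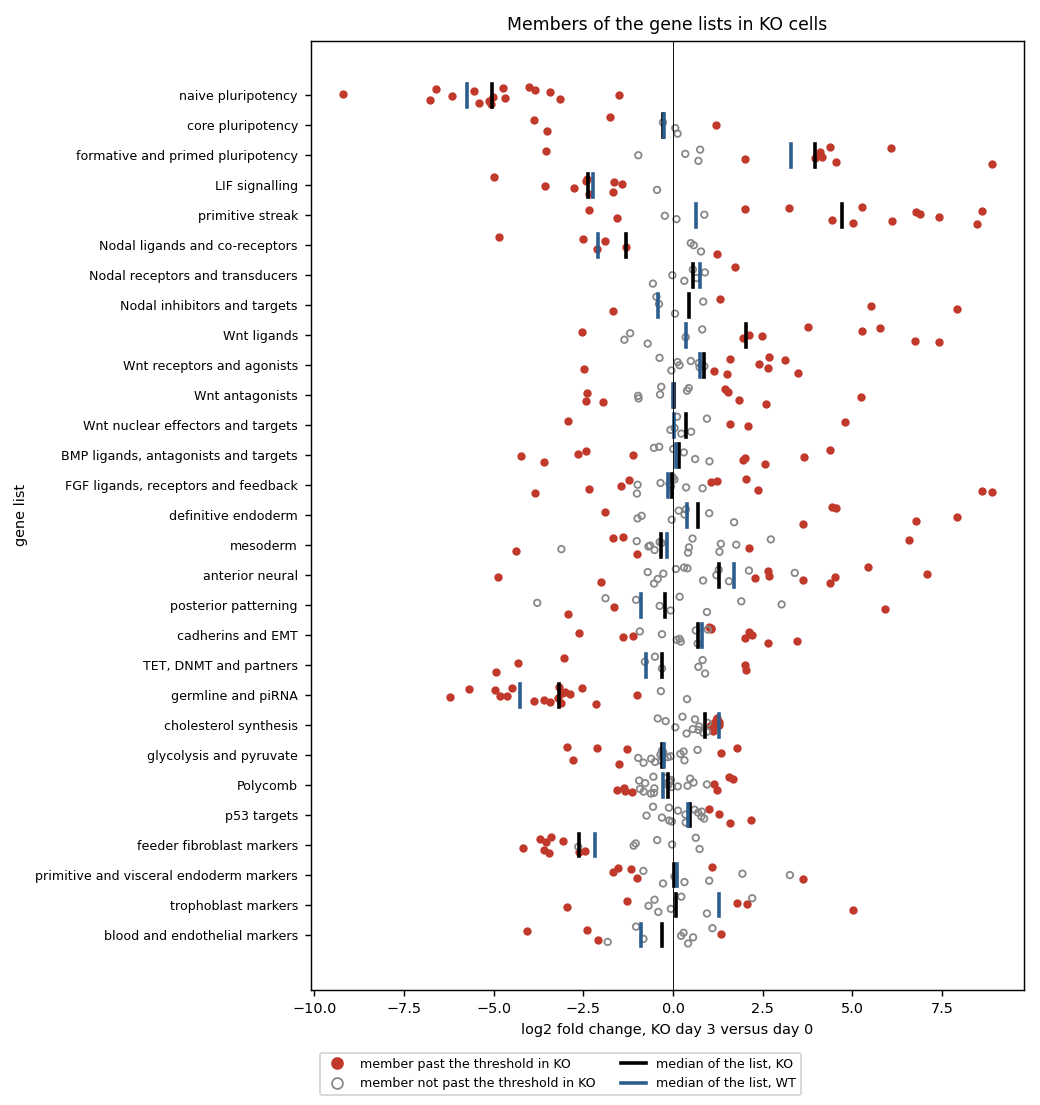
Log2 fold change from day 0 to day 3 in KO cells for each tested member of 29 gene lists. Filled red points passed the threshold, open grey points did not, and the short black and blue bars mark the median of each list in KO and in WT cells. All 16 naive genes lie left of 0, and the primitive streak list has a KO median of 4.72 and a WT median of 0.63.

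Of 16 measured primitive streak genes 11 rose, 2 fell and 3 did not pass (10.8% of all genes rose, 10.4% fell). Their median log2 fold change was 4.72 in KO cells. In WT cells 1 rose and 2 fell (12.9% and 9.62% of all genes) at a median of 0.63. The change was higher in KO than in WT cells for 7 members and lower for 0, beside 0.907% of all genes higher and 1.66% lower. *T*, the T-box factor Brachyury that defines the streak (mm10 chromosome 17, 8434423 to 8442496, plus strand), was at 0.641 and 0.236 CPM on day 0 and at 220.5, 197, 194 and 212 CPM on day 3, a log2 fold change of 8.47 (SE 0.82, adjusted p = 4.67e-09). WT libraries held 3.36 and 2.60 CPM and then 4.30, 1.80, 4.28 and 2.11 CPM, so all 4 KO libraries stood above all WT libraries, and the difference in change was 8.88 (SE 1.29, adjusted p = 0.000124). The related factor *Eomes*, required for definitive endoderm and for mesoderm to leave the streak, was at 9.40 and 10.4 CPM and then at 396, 378, 154 and 209.9 CPM, by 5.00 (SE 0.54, adjusted p = 3.16e-08). The libraries of experiment 1 held more of it than those of experiment 2, and its log2 fold change was 5.25 in the first and 4.18 in the second. Both WT lines held more in experiment 2 (18.6 and 12.6 CPM) than in experiment 1 (14.5 and 9.35 CPM) on day 3. The shared experiment term does not model such a split. *Mixl1*, a homeobox gene of the streak, went from 1.07 and 0.471 to 59.2, 52.6, 31.3 and 48.4 CPM and *Foxa2*, a factor of the anterior streak and endoderm, from 0.356 and 0.393 to 58.1, 50.8, 51.3 and 50.5 CPM, with log2 fold changes of 6.09 (SE 0.62) and 6.77 (SE 0.62). *Gsc*, an organiser gene, rose from 0.712 and 0.236 to 13.8, 14.5, 11.9 and 13.7 CPM, by 4.44 (SE 0.67, adjusted p = 5.85e-06). *Evx1*, expressed in the posterior streak, was at 0.356 and 0 CPM and then at 43.7, 32.7, 17.5 and 18.2 CPM.

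The differences from WT cells were 3.35 (adjusted p = 0.00591) for *Eomes*, 5.28 (adjusted p = 0.00231) for *Mixl1* and 6.17 (adjusted p = 0.000885) for *Foxa2*. Without WT day 0 replicate 2 the values for *Eomes* and *Foxa2* were 3.40 and 4.86 and did not pass (adjusted p = 0.0629 and 0.276). *Gsc* and *Evx1* rose by 4.44 and 7.43 in KO cells, and their differences of 3.99 (adjusted p = 0.0983) and 5.21 (adjusted p = 0.272) did not pass. Both were under 1 CPM in each day 0 library of either genotype. *Mesp1*, which marks mesoderm leaving the streak, was at 0.142 and 0.157 CPM and then at 0.199, 0.131, 0.117 and 0.633 CPM, with 22 counts in all on day 3, and no change was detectable at this depth (0.09, adjusted p = 0.968). Of 20 measured mesoderm genes 2 rose and 4 fell (10.8% and 10.4% of all genes), at a median of -0.35. *Twist1*, a factor of mesenchyme, rose from 1.92 and 2.36 to 10.8, 9.36, 12.3 and 11.2 CPM. *Foxf1*, of lateral mesoderm, had 0 counts on day 0 and 47 on day 3, at least 5.90-fold higher.

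Of 14 measured definitive endoderm genes 5 rose and 1 fell (10.8% and 10.4% of all genes). The 5 include *Foxa2*, *Gsc* and *Otx2*, already described. *Sox17*, the endoderm HMG-box factor, was at 0.142 and 0.157 CPM and then at 3.11, 1.37, 3.87 and 3.84 CPM, by 3.61 (SE 0.96, adjusted p = 0.00336). This rise did not pass with limma on log2(TPM + 1) (0.43, adjusted p = 0.253). *Hhex*, an endoderm homeobox gene, did not pass in either direction, with 6.98 and 6.99 CPM on day 0 and 4.77, 2.42, 4.70 and 5.57 CPM on day 3. It passed as a fall with the lines paired in experiment 1 (log2 fold change -1.02) and without KO day 3 replicate 1 (-1.08). *Cxcr4*, the third endoderm marker beside *Sox17* and *Foxa2*, was at 1.21 and 1.65 CPM and then at 0.729, 0.851, 1.12 and 1.22 CPM. Markers of extraembryonic endoderm, which shares several of these genes, summed to 268 to 272 CPM on day 0 and to 250.1, 265, 526 and 699 CPM on day 3. The libraries of experiment 2 lay above day 0 and those of experiment 1 did not, and *Col4a1* and *Lama1* were the most abundant of the list. *Ttr* and *Afp*, which define visceral endoderm, had 0 counts on day 0 and 20 and 7 counts over the 4 day 3 libraries, at most 0.470 and 0.176 CPM in any of them, and neither change passed. *Lama1* fell by 1.55 in the fit of all libraries, at 132 and 138 CPM on day 0 and 26.8, 38.4, 151 and 237 CPM on day 3, and its value in experiment 2 alone was 0.51. It did not pass without the experiment term (-0.24, adjusted p = 0.818) or with only the compared libraries (-0.27, adjusted p = 0.792). Trophoblast markers summed to 172 to 205 CPM and then to 433 to 716 CPM, of which *Eomes* made up the most, and *Tpbpa* was at 0 on day 0. The part of these cell types in the streak and endoderm values was not tested.

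Signals that drive the streak changed gene by gene. In the Nodal pathway, *Nodal* (mm10 chromosome 10, 61417972 to 61425338) was at 55.2 and 51.0 CPM on day 0 and at 154, 122, 90.8 and 82.0 CPM on day 3, a log2 fold change of 1.23 (SE 0.28, adjusted p = 0.000882). In WT cells it went the other way, from 50.1 and 47.2 to 14.1, 13.7, 20.7 and 14.2 CPM, and the difference was 2.66 (SE 0.38, adjusted p = 0.000107). Every KO day 3 library lay above the KO day 0 libraries and every WT day 3 library below the WT day 0 libraries. In experiment 2 alone the KO value was 0.67, under the threshold. *Tdgf1*, the co-receptor Cripto, fell from 918 and 1082 CPM to 572, 498, 432 and 327 CPM, a log2 fold change of -1.31 (adjusted p = 0.0279), and it was -0.94, under the threshold, in experiment 1 alone, with or without the lines paired. It did not pass by DESeq2 (adjusted p = 0.0661) or without the experiment term (-1.13, adjusted p = 0.0711) either. WT day 3 libraries held 18.6 to 61.4 CPM, and the difference in change was 3.42 (SE 0.71, adjusted p = 0.00322). Of the other ligands *Gdf3* and *Inhbb*, an activin subunit, fell by 2.12 and 4.86, as did *Pcsk6*, a protease that matures Nodal (1.90). Over the 9 ligands and co-receptors 1 rose and 5 fell (10.8% and 10.4% of all genes). Of 7 receptors and transducers only *Foxh1*, the DNA-binding partner of SMAD2, passed, from 29.3 and 34.5 to 95.1, 98.1, 97.0 and 101 CPM.

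Nodal targets and inhibitors gave a mixed picture, 3 higher and 1 lower of 8 (10.8% and 10.4% of all genes). For 5 the KO change was higher than the WT change, beside 0.907% of all genes. *Pmepa1* rose from 22.9 and 20.6 to 66.8, 50.02, 41.9 and 28.3 CPM, though in experiment 2 alone its value was 0.66. *Lefty1*, a secreted Nodal antagonist, was at 43.6 and 44.7 CPM and then at 61.9, 49.7, 16.3 and 12.1 CPM, so that experiment 1 lay above day 0 and experiment 2 below it. Its log2 fold change was 0.05 (adjusted p = 0.933) with all libraries and -1.67 in experiment 2 alone (adjusted p = 6.92e-06). *Lefty2* fell from 33.9 and 33.4 CPM to 12.5, 11.7, 9.33 and 7.39 CPM. Both fell in WT cells, and the differences between the genotypes were 2.24 and 2.35. Neither passed under each alternative, since *Lefty1* did not pass with only the compared libraries (adjusted p = 0.0644) or on log2(TPM + 0.1) (adjusted p = 0.0793), and *Lefty2* did not pass without either KO day 0 library, without WT day 0 replicate 2 or on log2(TPM + 0.1) (adjusted p = 0.0547, 0.0685, 0.0629 and 0.0923).

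Of 14 measured Wnt ligands 8 rose, beside 10.8% of all genes, and 1 fell, with a median log2 fold change of 2.03 in KO and 0.37 in WT cells. *Wnt3*, the ligand that initiates the streak in the mouse, was at 0.641 and 0.157 CPM and then at 49.4, 42.6, 41.4 and 34.9 CPM, a log2 fold change of 6.76 (SE 0.64, adjusted p = 3.39e-09). In WT cells it reached 3.33 to 7.05 CPM, and the difference was 3.67 (SE 1.06, adjusted p = 0.0345), which did not pass with the cell line as a block (3.66, adjusted p = 0.0535), without KO day 0 replicate 2 or without either WT day 0 library (adjusted p = 0.155, 0.169 and 0.13). *Wnt8a* rose from 0.285 and 0.550 to 20.8, 20.95, 28.7 and 27.2 CPM and *Wnt11* from 0.570 and 1.10 to 12.3, 12.8, 13.1 and 11.7 CPM. *Wnt5b*, which signals without β-catenin in many settings, rose from 1.42 and 2.43 to 14.4, 11.6, 10.5 and 9.03 CPM. The differences from WT were 4.98 (adjusted p = 0.00231), 3.27 (adjusted p = 0.00356) and 2.23 (adjusted p = 0.00156), the first 2 of which did not pass without WT day 0 replicate 2. Among 17 receptors and agonists 8 rose and 1 fell in KO cells (10.8% and 10.4% of all genes). In WT cells 8 rose and 2 fell (12.9% and 9.62%). *Fzd2* rose from 7.05 and 5.50 to 65.8, 82.3, 68.3 and 80.8 CPM and *Fzd6* by 2.63, while *Fzd5* fell from 191 and 177 to 31.4, 32.5, 33.2 and 31.4 CPM.

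Antagonists and targets of Wnt did not move as one group. Of 14 antagonists 5 rose and 3 fell (10.8% and 10.4% of all genes). *Sfrp1*, a secreted Frizzled-related inhibitor, fell in KO cells from 83.4 and 93.2 CPM to 15.0, 16.9, 12.1 and 18.7 CPM, by 2.42 on the log2 scale, and changed by 0.06 in WT cells, a difference of -2.48 (SE 0.19, adjusted p = 1.17e-08). *Frzb* and *Sfrp2* rose by 5.22 and 1.85. Of 10 nuclear effectors and targets 3 rose and 1 fell, beside the same 10.8% and 10.4%. *Axin2*, a feedback inhibitor that serves as a readout of β-catenin activity, rose from 34.0 and 32.0 CPM to 109, 98.2, 69.2 and 71.6 CPM, by 1.57 (SE 0.25, adjusted p = 9.7e-06), whereas in WT cells it went from 32.8 and 32.3 to 15.1, 12.2, 17.0 and 13.4 CPM (-0.96), and the difference was 2.53 (SE 0.33, adjusted p = 4.45e-05). *Sp5*, a zinc finger target of Wnt, was at 3.06 and 1.89 CPM and then at 89.0, 71.0, 14.8 and 16.2 CPM, by 4.80 (SE 0.36, adjusted p = 7.79e-11). Experiment 1 held several times more of it than experiment 2, in which the value was 2.61, still past the threshold. Its difference from WT, 6.03 (SE 0.49, adjusted p = 5.32e-08), passed under each alternative run. *Lef1*, a partner of β-catenin, rose in both genotypes (2.10 and 1.84). *Tcf7l1*, a repressor of the same targets, was at 124 and 112 CPM and then at 108, 118, 74.8 and 80.2 CPM (-0.07, adjusted p = 0.728). Its log2 fold change ran from -0.63 to 0.13 over the alternatives, and was 0.13 with limma on log2(TPM + 1). In WT cells it changed by 0.61, and the difference of -0.68 was under the threshold.

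The daily libraries of experiment 2 place these values in time. *Nodal* was at 17.5 and 19.5 CPM in the KO libraries of day 1 and at 13.9 and 29.4 CPM on day 2, under both day 0 and day 3. *Axin2* was at 10.6 and 11.3 CPM on day 1 and 7.85 and 9.60 CPM on day 2, and *Sp5* at 0.19 CPM or less on both days. *T* reached 1.25 and 2.72 CPM on day 2 and *Wnt3* 1.69 and 3.22 CPM, so most of the rise in both fell between day 2 and day 3. Day 0 belonged to experiment 1, so the fall from day 0 to day 1 and the step between experiments cannot be told apart.

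**Figure D3:**
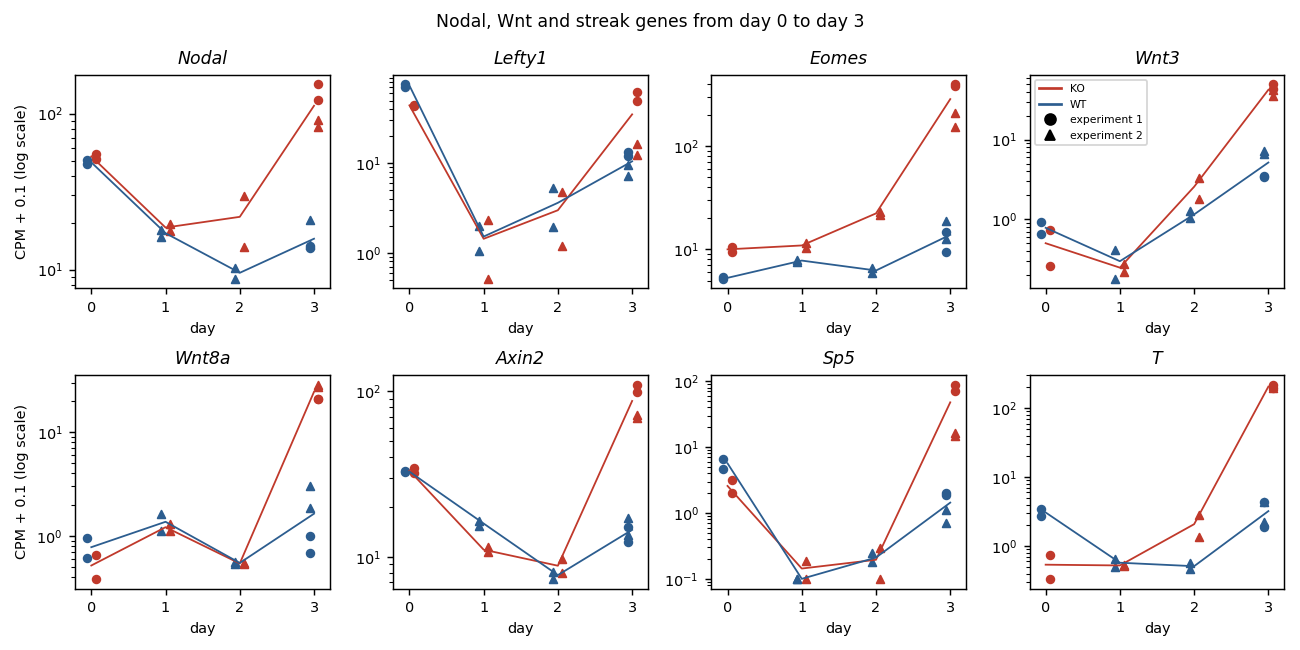
CPM + 0.1 (log scale) of Nodal, Wnt and streak genes on days 0 to 3. Red is KO and blue WT, circles are libraries of experiment 1, triangles those of experiment 2, and lines join the means of all libraries of a day. *Nodal*, *Axin2* and *Sp5* were lower on days 1 and 2 than on day 0, and on day 3 every KO library lies above every WT library for each gene but *Lefty1*, whose lowest KO value (12.1 CPM) is below the highest WT value (13.2 CPM).

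The 250 bases before the RefSeq start sites of *T* and *Sp5*, the members of the streak list and of the Wnt target list with the largest difference from WT cells, are given with the letters of a TCF/LEF core in capitals (CTTTGA or, on the other strand, TCAAAG).
T, mm10 chr17:8434173-8434422, plus strand: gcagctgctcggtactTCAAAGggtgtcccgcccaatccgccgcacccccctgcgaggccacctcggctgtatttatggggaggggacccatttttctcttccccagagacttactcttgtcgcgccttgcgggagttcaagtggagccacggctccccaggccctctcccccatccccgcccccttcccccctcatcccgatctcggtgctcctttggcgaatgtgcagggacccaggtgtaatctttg
Sp5, mm10 chr2:70474673-70474922, plus strand: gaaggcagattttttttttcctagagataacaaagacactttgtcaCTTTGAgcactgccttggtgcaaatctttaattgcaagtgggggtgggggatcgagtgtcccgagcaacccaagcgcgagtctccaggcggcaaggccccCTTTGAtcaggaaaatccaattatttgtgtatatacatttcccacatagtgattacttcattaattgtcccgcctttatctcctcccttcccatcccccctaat
TCF/LEF proteins, TCF7L1 among them, bind Wnt target genes at such motifs. The *T* sequence held 1 match, starting 234 bases before the start site, and the *Sp5* sequence held 2, at 204 and 104 bases. These 6 letters stood in 13.8% of the 32851 promoters of that length. They were in 3 of 12 streak genes and in 2 of 8 Wnt effectors and targets with a promoter in the table, so the match describes these windows and no binding was measured.

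Of 20 measured FGF genes 6 rose and 4 fell (10.8% and 10.4% of all genes). *Fgf8*, a ligand of the streak, had 3 counts on day 0 and 4522 on day 3, 568 (95% interval 194 to 2754) times higher by counting error alone, at 66.5, 66.7, 72.4 and 53.4 CPM on day 3. WT day 3 libraries held 1.39, 0.432, 8.25 and 3.29 CPM. The difference in its change passed (adjusted p = 0.0192), but not without either KO day 0 library, without WT day 0 replicate 2 or without the experiment term (adjusted p = 0.0579, 0.0719, 0.359 and 0.0526). *Fgfr1*, the receptor that streak cells need, was at 114 and 114 CPM and then at 210.1, 207, 177 and 175 CPM, a log2 fold change of 0.82, under the threshold. Over 16 BMP genes 5 rose and 5 fell, beside the same 10.8% and 10.4%. *Bmp4* dropped from 39.1 and 28.7 CPM to 2.19, 2.16, 1.94 and 2.74 CPM, *Bmp7* rose from 8.83 and 11.9 to 43.7, 38.1, 39.0 and 33.7 CPM, and *Id2*, a transcriptional target of BMP, fell from 45.9 and 44.8 to 8.08, 5.57, 3.17 and 4.43 CPM.

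Of 23 anterior neural genes 8 rose and 2 fell (10.8% and 10.4% of all genes) at a median log2 fold change of 1.27. In WT cells 14 rose and 2 fell (12.9% and 9.62%) at a median of 1.70. The difference passed as lower for 2 and as higher for 0 (1.66% and 0.907% of all genes). *Sox3* rose from 1.71 and 1.89 CPM to 41.1, 42.5, 34.3 and 30.4 CPM and *Zic2* from 12.9 and 15.0 to 199, 193, 157 and 149 CPM, both of them active in epiblast and in neuroectoderm. *Nes*, an intermediate filament of progenitors, rose from 17.0 and 17.7 to 380.4, 323, 320.1 and 277 CPM, by 4.50 (SE 0.19, adjusted p = 1.38e-15), and to 353 to 486 CPM in WT cells. *Lhx5*, *Dcx* and *Six3* rose by 7.06, 5.43 and 2.68 in KO cells, beside 1.70, 6.10 and 1.35 in WT cells. The larger KO values of *Lhx5* and *Six3* did not pass as a difference. The 2 members that fell were *Hesx1* (-4.89, and -1.58 in WT cells) and *Sox21* (-2.01 and -0.84). In KO cells 4 members of the list had 3 or fewer counts on day 0 or day 3. *Sox1*, the earliest gene limited to neuroectoderm, was at 2.21 and 1.26 CPM and then at 0.662, 1.11, 1.17 and 2.19 CPM, with overlapping groups (-0.53, adjusted p = 0.5). *Pax6* was at 0.214 and 0.393 CPM and then at 0.662, 0.917, 0.470 and 0.760 CPM (1.56, adjusted p = 0.0537), and it passed as a rise by DESeq2 (adjusted p = 0.0464), without a filter on counts (adjusted p = 0.0121) and without KO day 3 replicate 1 (adjusted p = 0.0466). WT day 3 libraries held 5.97, 5.90, 3.30 and 3.66 CPM of *Sox1*, and its difference of -1.42 (adjusted p = 0.298) did not pass. Posterior genes gave 1 higher and 2 lower of 12 (10.8% and 10.4% of all genes). *Nkx1-2*, of the caudal epiblast, rose from 0.356 and 0.550 to 37.5, 35.8, 23.8 and 24.5 CPM, and *Cdx1* fell from 7.33 and 4.48 to 0.994, 1.05, 0.352 and 0.253 CPM.

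Genes of adhesion and of epithelial-mesenchymal transition gave 8 higher and 3 lower of 19 (10.8% and 10.4% of all genes) at a median log2 fold change of 0.68. WT cells also gave 8 higher and 3 lower (12.9% and 9.62%), at a median of 0.82. The difference passed as higher for 1 and as lower for 0 (0.907% and 1.66% of all genes). *Cdh1* (E-cadherin) stayed high, at 604 and 599 CPM and then 924, 923, 793 and 800.4 CPM, with a log2 fold change of 0.68 under the threshold. *Cdh2* (N-cadherin) rose from 4.34 and 2.51 to 19.2, 22.5, 23.4 and 27.5 CPM. *Zeb2*, a repressor of E-cadherin, rose from 2.21 and 3.46 to 11.99, 15.4, 11.6 and 16.6 CPM, and *Fn1*, which encodes fibronectin, fell from 1347 and 1492 CPM to 256, 238, 230.1 and 216 CPM. *Cldn6*, a claudin gene, rose by 1.05, and its value in experiment 2 alone was 0.74, under the threshold.

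Of 23 germline genes listed 20 were tested, of which 18 fell, beside 10.4% of all genes, at a median log2 fold change of -3.20. *Morc1* and *Tdrd12*, which silence transposons in the male germline, went from 85.8 and 91.7 to 1.92, 1.37, 1.59 and 1.94 CPM and from 92.5 and 93.6 to 7.15, 8.38, 5.64 and 7.05 CPM. *Stag3*, a meiotic cohesin subunit, went from 52.5 and 77.0 to 9.21, 11.7, 12.7 and 14.1 CPM. In WT cells 19 of the list fell, beside 9.62% of all genes. The fall was smaller in KO cells for 4 members, beside 0.907% of all genes with a higher difference. *Morc1* (1.44), *Tdrd12* (1.38) and *Rpl10l* (1.84) were among these members. On log2(TPM + 1) these 3 differences did not pass. That of *Morc1* was 0.99 in experiment 1 alone (adjusted p = 0.0909), and that of *Rpl10l* did not pass in experiment 2 alone (adjusted p = 0.076). *Zfp57* and *Dnmt3l*, which guard imprints and assist de novo methylation, fell by 3.05 and 4.32.

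In metabolism, 8 of 20 cholesterol synthesis genes rose and 0 fell at a median of 0.89 (10.8% of all genes rose), beside 14 of 20 in WT cells at 1.28 (12.9% of all genes). *Stard4*, a sterol carrier gene, rose from 58.2 and 61.6 to 140.4, 137, 141 and 147 CPM. With the lines paired in experiment 1 the count was 4, and *Msmo1* and *Lss* did not pass there. Of 22 genes of glycolysis and pyruvate use 2 rose and 5 fell (10.8% and 10.4% of all genes). *Slc2a3*, a glucose transporter, fell from 1613 and 1504 CPM to 713, 614, 531 and 365 CPM, *Pfkp*, a phosphofructokinase, from 211 and 279 to 41.3, 41.4, 38.6 and 22.1 CPM and *Hk1* by 1.50, while *Slc16a3*, which exports lactate, rose from 45.2 and 58.0 to 195, 198, 178 and 119.5 CPM. Of 27 Polycomb genes 4 rose and 4 fell, shares near the 10.8% and 10.4% of all genes, at a median of -0.14. *Mtf2* and *Jarid2*, which recruit the Polycomb repressive complex to DNA, fell from 444 and 432 to 149.6, 145, 157 and 158 CPM and from 680.4 and 577 to 258, 263, 219.7 and 229 CPM, and *Eed*, a core subunit, by 1.16. Among p53 targets 4 of 18 rose and 0 fell (10.8% and 10.4% of all genes). *Pmaip1*, which promotes cell death, rose from 79.5 and 75.0 to 294, 308, 224 and 240.3 CPM and *Cdkn1a*, a cell cycle inhibitor, from 38.7 and 58.0 to 138, 119, 75.8 and 75.9 CPM, with a value of 0.63 in experiment 2 alone. *Aen* rose by 1.01 and did not pass in most alternatives.

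Of 16 fibroblast markers 9 fell, beside 10.4% of all genes, and *Col1a1* went from 40.2 and 25.997 to 3.38, 2.42, 3.58 and 4.73 CPM. Fibroblasts also express *Fn1*, *Acta2* and *Twist1*, and their part in the changes of these genes was not tested. Blood and endothelial markers summed to 80.1 to 81.2 CPM on day 0 and 15.9 to 17.2 CPM on day 3. Most of this was *Pecam1*, an adhesion molecule that ESCs also carry, which went from 63.1 and 63.2 to 3.11, 3.67, 4.17 and 4.05 CPM. The embryonic globins *Hbb-bh1* and *Hba-x* were at 0 on both days.

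The highest rises by the naming rule included *Grm6*, *Fgf5*, *Aplnr*, *Fgf8*, *T*, *Foxb1*, *Slc35d3*, *Evx1* and *Otog*. *Grm6*, a metabotropic glutamate receptor gene, and *Aplnr*, the apelin receptor of early mesoderm, had 0 counts in both day 0 libraries and 380 and 428 over the day 3 libraries, at least 47.7-fold and 53.7-fold higher. *Aplnr* varied on day 3, at 5.23, 2.82, 8.39 and 6.88 CPM. *Foxb1*, a forkhead gene, had 1 count on day 0 and was at 25.2, 22.0, 10.6 and 9.41 CPM, more in experiment 1 than in experiment 2. *Otog*, which encodes otogelin, went from 0 and 0.236 CPM to 15.4, 15.7, 33.5 and 44.9 CPM, more in experiment 2. *Slc35d3*, a transporter gene, reached 15.4 to 24.7 CPM, and WT day 3 libraries held 42.0 to 56.0 CPM. The 10 largest falls were *Halr1*, *Prdm14*, *Xlr5b*, *Elobl*, *Lyz2*, *Accsl*, *Hal*, *Myo1f*, *Fosb* and *Khdc3*. *Lyz2*, the lysozyme of macrophages, had 342 counts on day 0 and 3 on day 3, 303 (95% interval 103 to 1475) times higher on day 0 by counting error alone. *Khdc3*, a gene of oocytes and early embryos, went from 12.96 and 17.4 to 0.0662, 0.131, 0.0587 and 0 CPM. *Halr1*, a long non-coding RNA beside the *Hoxa* cluster, and *Accsl* had 1 count each on day 3, against 270 and 321 on day 0. *Fosb*, an immediate early gene, was by far the most abundant of them on day 0, at 206 and 257 CPM, and was at 0.530, 0.589, 0.352 and 0.380 CPM on day 3. *Xlr5b* belongs to an X-linked family of near-identical copies, so its counts are uncertain. It was at 14.2 and 7.85 CPM on day 0, and its log2 fold change ran from -10.31 to -2.50 over the alternatives.

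Set beside WT cells, 3369 of the 4580 genes that changed in KO cells also changed in the same direction in WT cells, which is 73.6% of the KO and 69.3% of the 4858 WT calls (12.9% of genes rose and 9.62% fell in WT cells). A further 1201 changed in KO cells and did not pass in WT cells, but the difference itself passed for 135 of these. The difference passed for 555 genes in all, 196 higher and 359 lower in KO cells. Only 10 genes passed in both genotypes in opposite directions. The difference passed for each, but calls of opposite sign from the same fit nearly fix that outcome. The 10 genes were *Nodal*, *Sp5*, *Prr18*, *Ism2*, *Samd5*, *Pygl*, *Helz2*, *Myo18b*, *Gm5124* and *Gm38340*, named after their values were seen. *Prr18*, a gene of unassigned function, went from 0.214 and 0.0785 to 2.98, 4.12, 2.82 and 3.04 CPM in KO cells and from a mean of 1.22 to 0.451 CPM in WT cells, and *Pygl*, the liver glycogen phosphorylase, went from 4.41 and 4.01 to 0.994, 0.917, 1.35 and 0.675 CPM and from a mean of 0.890 to 2.00 CPM. *Ism2* rose with all libraries and its value in experiment 2 alone was -0.09.

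**Figure D4:**
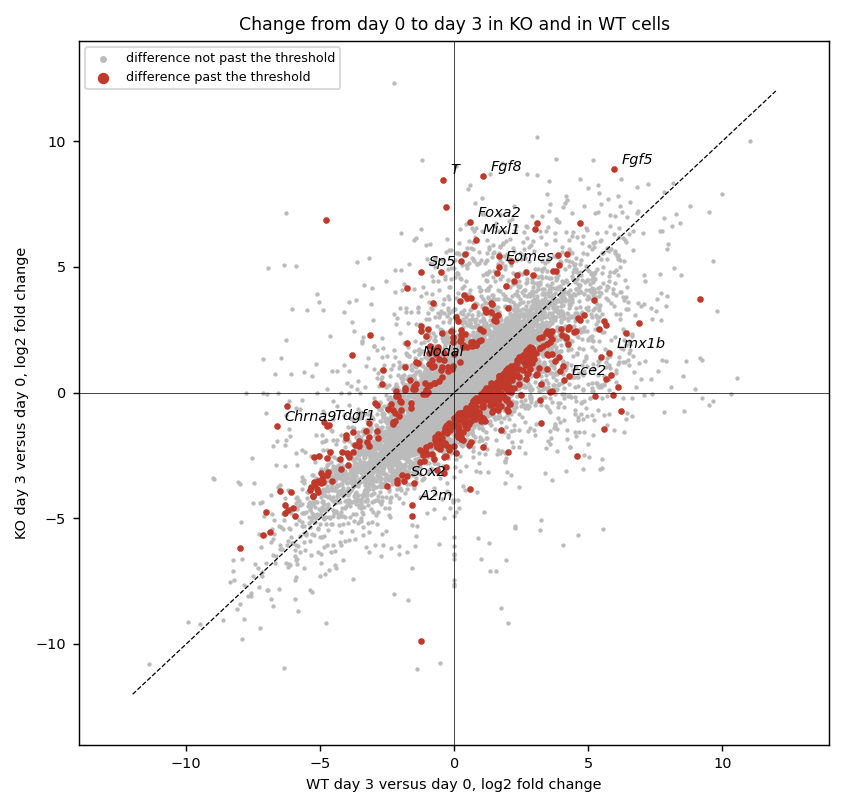
Log2 fold change from day 0 to day 3 in KO cells against that in WT cells for each of the 21601 tested genes. Red points are the 555 genes whose difference passed the threshold, the dashed line marks equal change, and named genes are those described in the text. *T*, *Foxa2*, *Mixl1* and *Sp5* lie far above the line, with KO values between 4.80 and 8.47.

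By the naming rule the 6 highest differences were *T*, *Fgf8*, *Foxa2*, *Sp5*, *Mixl1* and *Chrna9*. *Chrna9*, a nicotinic receptor subunit gene, went from 7.83 and 4.56 to 2.78, 2.36, 1.17 and 1.90 CPM in KO cells and from a mean of 6.40 CPM to 0.0549 CPM in WT cells, a difference of 5.28 (SE 0.76, adjusted p = 0.000164). The 6 lowest were *Lmx1b*, *Ece2*, *Celf3*, *Acta1*, *A2m* and *Tspan12*. *Lmx1b*, a LIM homeobox gene of midbrain and dorsal neural tissue, was at 1.64 and 1.18 CPM and then at 3.51, 5.04, 2.52 and 3.17 CPM in KO cells, and at 28.2, 27.3, 10.9 and 10.6 CPM in WT day 3 libraries, a difference of -4.23 (SE 0.67, adjusted p = 0.000275). *Acta1*, skeletal muscle actin, reached 2.35 to 3.08 CPM in KO and 9.68 to 19.6 CPM in WT cells (-2.98, SE 0.41, adjusted p = 7.31e-05). *Ece2* and *Celf3*, which brain tissue expresses, differed by -3.60 and -2.997, and *Celf3* lost the call in most alternatives. *Ece2* did not pass in KO cells. Its KO value was 1.48 and passed with day 3 of experiment 2 alone (adjusted p = 0.00172), and it was -0.07 on log2(TPM + 1). *A2m* fell by 4.48 in KO cells, against 1.56 in WT cells (difference -2.92), and *Tspan12* rose by 2.53, against 5.42 in WT cells. The differences of *Lmx1b* and *Tspan12* did not pass on log2(TPM + 1) (adjusted p = 0.22 and 0.37). That of *Tspan12* did not pass in experiment 2 alone (adjusted p = 0.058), nor did that of *A2m* in experiment 1 or experiment 2 alone (adjusted p = 0.0597 and 0.0613).

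Genes that the study drew from a gastrulation atlas for 6 lineages gave the following counts. The lists overlap with those above and with each other. Of 40 streak genes 22 rose and 4 fell in KO cells (10.8% and 10.4% of all genes) at a median of 2.09. In WT cells 15 rose and 8 fell (12.9% and 9.62%) at a median of 0.30. The difference was higher for 16 and lower for 0 (0.907% and 1.66% of all genes). *Vrtn* rose from 4.56 and 2.83 to 172, 173, 112 and 114 CPM and *Mkrn1* fell from 679.9 and 668 to 293, 296, 294 and 301 CPM. Of 50 ectoderm genes 24 rose and 9 fell (10.8% and 10.4% of all genes), beside 31 and 4 in WT cells (12.9% and 9.62%), and the difference was lower for 9 and higher for 0 (1.66% and 0.907%). *Tubb2b*, a neuronal tubulin, fell in KO cells from 292 and 299 CPM to 60.8, 51.3, 46.7 and 45.7 CPM, with a difference of -1.36 (SE 0.16, adjusted p = 7.37e-06), and *Pls3* had a difference of -1.02, which was -0.94, under the threshold, in experiment 2 alone. Of 80 mesoderm genes 34 rose and 12 fell, of 128 endoderm genes 34 and 15, of 101 neuromesodermal progenitor genes 42 and 17, and of 75 epiblast genes 22 and 7. Each of these counts stands beside 10.8% of all genes that rose and 10.4% that fell. In WT cells these lists, in the same order, gave 27 and 13, 32 and 19, 32 and 16, and 24 and 6 (12.9% and 9.62% of all genes). The difference passed as higher for 6, 9, 8 and 4 members and as lower for 1, 9, 3 and 1 (0.907% and 1.66% of all genes). *Prtg* and *Tead2*, of the mesoderm list, rose from 33.0 and 24.6 to 249, 266, 246 and 256 CPM and from 115 and 132 to 315, 315, 295 and 276 CPM, and *Car4*, of the endoderm list, from 5.84 and 5.58 to 92.8, 99.5, 96.2 and 75.1 CPM. *Nr6a1*, of the neuromesodermal list, rose from 92.4 and 87.0 to 312, 312, 298 and 315 CPM, with a difference from WT cells of -0.67 that was under the threshold.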

How the data were processed

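Polyadenylated RNA of cultured mouse ESCs and their derivatives was sequenced as stranded single-end libraries. The authors trimmed reads with Trim Galore 0.6.4 and quantified them with Salmon 0.14.1 against GENCODE mouse release 23 transcripts (mm10), and imported gene values in R 4.0.2. The deposited tables hold these expected counts, which need not be whole (73.8% were), and TPM values computed by the authors. Whether strand was used in quantification is not given in the sources used here. Groups follow the labels, and replicates of a day are the lines KO1 and KO15, or WT7 and WT34. P-values take their spread from all groups of the fit, other genotypes and days included.

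Expected counts were rounded and fitted in edgeR 4.0.16 under R 4.3.3 over all 36 libraries, tested by its quasi-likelihood F test, with TMM factors, 16 group means and a term for experiment 2 (19 residual degrees of freedom). Genes passed filterByExpr with a minimum count of 10 and a minimum total of 15, which left 21601 of 54281. P-values were adjusted by Benjamini-Hochberg over all tested genes. The SE given is the size of the log2 fold change divided by the square root of the F statistic. It is thus derived from the test and is approximate, the more so for genes near 0 counts on day 0. The difference between genotypes is the KO change minus the WT change in the same model. A gene with 0 counts on 1 day was given as a bound from 3 counts over the group, and with 1 to 3 counts as a ratio with its exact 95% interval. Both cover counting error only. Promoters are from RefSeq (GRCm38.p6). The scripts were tested on simulated counts.

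Replicate numbers mark cell lines, so the line pairs day 0 with day 3. The difference between the lines correlated by 0.0243 between day 0 and day 3 of experiment 1 in KO cells and by -0.00996 in WT cells. Alternatives were DESeq2 1.42.0 and its size factors, no filter, a log2 threshold of 1.5, no experiment term, fewer libraries, the line as a block, limma 3.58.1 on log2 TPM, and leaving out each library. Named genes were 36 fixed markers, the 10 highest and 10 lowest changes, the 6 highest and 6 lowest differences (without predicted genes, and with at least 5 CPM in the higher group) and up to 4 members of each list with the smallest p, or up to 2 of highest CPM. Other genes named in the text were chosen after their values were seen. Members and lists were chosen with earlier results of these data known, 29 lists from general knowledge and 6 from an embryo atlas as the study collated them. All 923 list entries matched a gene. The comparison of experiment 2 alone was added after seeing the data. Some genes that the rule names are not reported here.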

Additional observations from a re-analysis of the deposited data

Results flagged for a closer look

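Of 162 named genes screened over the 4 KO day 3 libraries, 5 had 1 library far from the others by Dixon's criterion, where chance gives about 1 in 20. These libraries held *Foxa2* at 58.1 CPM, *Grm6* at 4.34 CPM, *Dppa2* at 8.06 CPM, *Pfkp* at 22.1 CPM and *Stxbp6* at 45.6 CPM.

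The change from day 0 to day 3 differed between KO and WT cells by the test of the difference for 196 genes that were higher and 359 that were lower in KO cells. Among the fixed markers the difference in log2 change was 8.88 for *T*, 6.17 for *Foxa2*, 5.28 for *Mixl1* and 3.35 for *Eomes*, of the streak. It was 6.03 for *Sp5*, 3.67 for *Wnt3* and 2.53 for *Axin2*, of the Wnt pathway, and 2.66 for *Nodal*, 3.42 for *Tdgf1*, 2.24 for *Lefty1* and 2.35 for *Lefty2*, of the Nodal pathway. *Fgf5* differed by 2.92, *Nanog* by 1.77, *Sox2* by -1.63 and *Tet1*, the targeted gene, by 3.55. The fitted 7.54 for *Fgf8* rests on 3 counts on KO day 0. Among genes named for their difference, *Chrna9* was higher by 5.28, while *Lmx1b* differed by -4.23, *Ece2* by -3.60, *Celf3* by -2.997, *Acta1* by -2.98, *A2m* by -2.92 and *Tspan12* by -2.89.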

How the results depend on the processing

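Of 142 named genes that passed in KO cells, 109 passed in the same direction under each alternative run and 123 under each alternative on counts. The main counts were 4580 genes in KO cells, 4858 in WT cells and 555 for the difference. On log2(TPM + 1) limma gave 1864 for KO (989 higher, 875 lower), 2077 for WT (1285 and 792) and 203 for the difference (89 and 114). On log2(TPM + 0.1) these were 2477 (1459 and 1018), 2721 (1814 and 907) and 249 (91 and 158), and on log2(TPM + 1) without a filter 2096 (985 and 1111), 2271 (1297 and 974) and 189 (89 and 100.0). The difference counted 298 genes (127 and 171) at a log2 threshold of 1.5, 345 higher without a filter on counts, and 215 lower with day 3 of experiment 2 alone. Leaving out each library gave 3959 to 4501 genes for KO and 4253 to 4801 for WT. For the difference it gave 357 to 559, with 132 to 207 higher and 212 to 362 lower. The lowest was without KO day 0 replicate 2 (357 genes, 212 lower), and 232 were lower without WT day 0 replicate 1.

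With a replicate block for the cell line, 4482 genes passed in KO cells (2288 higher, 2194 lower), and in experiment 1 alone with that block 4201 (2052 and 2149). Among named genes the block over all libraries ended the KO call of *Aen* (0.999) and the difference of *Wnt3*. In experiment 1 alone, with and without the block, *Tdgf1*, *Acta1*, *Msmo1*, *Lss*, *Aen* and *Apob* did not pass in KO cells, nor did the differences of *Celf3*, *A2m* and *Morc1*, and *Hhex* passed with the block.

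KO log2 changes that turned sign were those of *Lefty1* (-0.0175 by DESeq2, -0.34 without the experiment term, -0.38 with only the compared libraries, -0.0139 on log2(TPM + 1) with and without a filter, -1.67 in experiment 2 alone, -0.24 to 0.15 without 1 KO day 3 library), *Pou5f1* (-0.0289 with only the compared libraries, -0.0901 in experiment 2 alone), *Mesp1* (-0.0480 on log2(TPM + 1) without a filter, -0.45 to 0.40 without 1 KO day 3 library) and, in experiment 2 alone, *Cdx2* (-0.37), *Lama1* (0.51) and *Apob* (0.43). On log2(TPM + 1), with or without a filter, and on log2(TPM + 0.1), *Tet1* was at -0.67 and -0.70, *Tcf7l1* at 0.13 in each and *Ece2* at -0.0714 and -0.16. The cause was not tested. A gene with few counts on day 0, such as *Mesp1*, is limited by depth.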

Other observations

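Other genes, chosen after their values were seen, are given here as values in KO cells. *Fos*, an immediate early gene that responds within minutes to serum, was at 304 and 330.3 CPM on day 0 and at 2.72, 2.36, 2.23 and 1.44 CPM on day 3, a log2 fold change of -6.32 (SE 0.56, adjusted p = 9.12e-10), and it stood at 0.476 and 0.779 CPM on day 1 of experiment 2. The further early response genes *Dusp1*, *Nr4a1*, *Junb* and *Zfp36* fell by 1.75, 1.56, 1.42 and 1.21. *Egr1*, *Jun* and *Atf3* did not pass, with -1.15, -0.90 and 0.90. The metallothioneins *Mt1* and *Mt2*, which bind zinc, fell by 1.83 and 2.01.

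Imprinted genes moved in both directions. *Peg3*, a paternally expressed zinc finger gene, was at 41.9 and 87.1 CPM on day 0 and at 264, 307, 324 and 387 CPM on day 3 in KO cells (2.15), with KO1 the lower of the 2 lines on both days of experiment 1. In WT cells it was at 326 and 205 CPM and then at 395, 297, 404 and 316 CPM (0.26), above the KO day 0 libraries from the start, and the difference was 1.89 (SE 0.43, adjusted p = 0.0067). The maternally expressed non-coding RNAs *Meg3* and *Rian* rose by 1.35 and 1.06, while *Peg10* and *H19* fell by 2.47 and 2.06.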
